A study of Mus musculus with 8 samples.

Results

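The sodium pump genes described here are the 3 Na,K-ATPase beta subunit genes *Atp1b1*, *Atp1b2* and *Atp1b3*, the 3 FXYD regulator genes *Fxyd2*, *Fxyd4* and *Fxyd5*, and *Ppme1*, which encodes a methylesterase of protein phosphatase PP2A. The 7 genes were chosen by name from the 55401 genes listed for each kidney, with no measured value in the rule. All 7 passed the filter on low counts, which kept 14326 genes. RNA-Seq was performed on whole kidneys of 4 control and 4 SIK mutant mice, 1 library per kidney. Both groups carried loxP-flanked *Sik1*, *Sik2* and *Sik3*, which encode the salt-inducible kinases (SIKs). Controls had no Cre, and mutants also had the Six2-Cre transgene. Six2-Cre is active in nephron progenitors and their epithelial descendants. Cells of these kidneys that do not descend from them, among them blood, vessel and stromal cells, keep their SIK genes. The labels write both *Sik1* alleles of the mutants as floxed, while the study's text describes kidney-specific mutants with 1 wild-type *Sik1* allele. It reports that Six2-Cre mice with both alleles of all 3 genes floxed could not be obtained alive. The group is called SIK mutant here. The labels give no sex or age, and the study used both sexes with Cre-negative littermates as controls.

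The Na,K-ATPase exports sodium and imports potassium across the basolateral membrane of tubule cells, and its gradient drives reabsorption along the nephron. A catalytic alpha subunit pairs with a beta subunit, which is needed for folding and delivery to the membrane. A small FXYD protein can join the pair and tune its affinity for sodium and potassium. In cultured renal cells, a rise in intracellular sodium is known to act on the pump through SIK1, and PP2A with its methylesterase has been placed in that pathway as the step that dephosphorylates the alpha subunit. The comparison asks whether the mRNA levels of these pump components differ when SIK genes are deleted in the nephron. Phosphorylation and protein were not measured.

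The targeted genes were read first. Levels are given as CPM, expected counts scaled by library size and TMM factor. *Sik3* was at 58.6, 66.5, 65.7 and 61.0 CPM in controls 1 to 4 and at 41.4, 39.7, 43.1 and 33.7 CPM in mutants 1 to 4. The groups did not overlap, and the edgeR log2 fold change of mutant over control was -0.67 (SE 0.09, FDR 0.0697). *Sik2* lay between 7.97 and 9.95 CPM in controls and between 4.50 and 9.30 CPM in mutants, with a log2 fold change of -0.44 (SE 0.21, FDR 0.794). *Sik1* lay between 36.8 and 43.1 CPM in controls and between 43.4 and 54.1 CPM in mutants, with a log2 fold change of 0.31 (SE 0.09, FDR 0.601). In the 6 kidneys whose Y-linked genes were expressed, as defined below, the edgeR log2 fold changes of *Sik1*, *Sik2* and *Sik3* were 0.39, -0.46 and -0.65 (FDR 0.314, 0.55 and 0.106). Over all 14326 tested genes, 0 had an FDR under 0.05 in the edgeR fit, and 911 had an unadjusted p under 0.05. DESeq2 called 67 genes at that FDR, 0.468% of those tested.

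Library properties were compared before the genes. Each library held 10179648 to 10925100 expected counts. The mean of 4 Y-linked genes was 0 CPM in control 3 and 0.0438 CPM in control 4, which carried *Xist* at 260.5 and 297.8 CPM, and 19.2 to 23.7 CPM in the other 6 kidneys. By these genes controls 3 and 4 were female and the other 6 kidneys male, so sex was not balanced between the groups. Controls 1 and 2 and the 4 mutants, all above a minimum of 1 CPM, are called the kidneys with Y-linked reads. The 7 genes are also given for them. The libraries differed in fragment length too. RSEM, the program that estimated the counts, subtracts from each transcript's length the mean fragment length less 1 base. This difference was 217.5, 218.8, 211.7 and 212.2 bases in controls 1 to 4 and 208.8, 206.3, 204.1 and 218.2 bases in mutants 1 to 4. Mutants 1 to 3 had the shortest fragments, and mutant 4 lay between controls 1 and 2. The group means, 215 and 209 bases, did not differ beyond the spread (two-sided exact permutation p = 0.171, n = 4 and 4). Marker genes of the nephron segments were all detected. Intercalated cell markers had 4 of 6 genes with an unadjusted p under 0.05, all lower in mutants. Over all tested genes, 6.36% had such a p and 3.59% had it with a lower level in mutants. These markers summed to 214, 190.5, 276 and 253 CPM in controls 1 to 4 and to 182 to 201 CPM in mutants. Their median log2 fold change was -0.30 over all kidneys and -0.18 over the kidneys with Y-linked reads. Adipocyte markers summed to 22.3, 29.9, 219 and 67.1 CPM in controls 1 to 4 and to 166 to 262 CPM in mutants. Controls 1 and 2, in which *Cfd* was at 0 and 1.28 CPM, are the only controls among the kidneys with Y-linked reads, where the median log2 fold change of the adipocyte markers was 6.03, so fat content and genotype cannot be told apart there. Blood markers summed to 702 to 1233 CPM in controls and to 2967, 731, 878 and 2594 CPM in mutants 1 to 4, with 2 of 5 genes at an unadjusted p under 0.05, both higher in mutants. Mutants 1 and 4 had the highest sums, and mutants 2 and 3 lay within the controls. The part of these cell types in the results below was not tested.

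Per unit of length, 2 of the 7 genes stood far above the rest. In TPM, a measure of transcript abundance that scales counts to effective length and so allows genes to be compared, *Fxyd2* was the highest at 4023 ± 398 (SD, n = 8). *Atp1b1*, the usual beta subunit in kidney epithelium, followed at 819 ± 80.5 TPM. The lowest kidney for each of these genes was above the highest kidney for every lower gene of the 7. *Atp1b1* made up 92.7% to 93.9% of the summed TPM of the 3 beta subunit genes, and *Fxyd2* 95.5% to 98.1% of that of the 7 FXYD genes.

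The remaining genes were far lower. *Fxyd4*, also called CHIF and known from collecting duct, was at 87.2 ± 31.0 TPM, and *Atp1b3* at 51.4 ± 5.56 TPM. Their ranges, 48.1 to 135 TPM and 43.8 to 58.8 TPM, overlapped, so their order was not resolved. *Fxyd1* (phospholemman), *Ppme1* and *Fxyd5* (dysadherin) lay at 25.7, 20.2 and 19.995 TPM with overlapping ranges. *Atp1b2*, the beta subunit best known from glia, was the lowest of the 7 genes at 6.46 ± 2.96 TPM, and its highest kidney overlapped the lowest of *Fxyd5*.

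**Figure D1:**
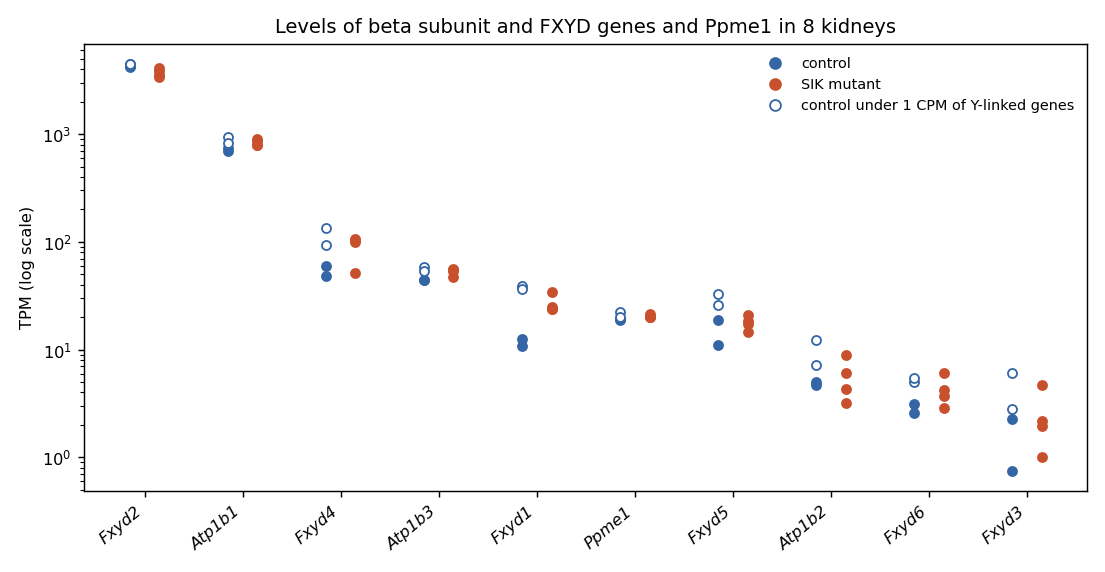
TPM of the beta subunit and FXYD genes that passed the filter on low counts, and of *Ppme1*, on a log axis, with 1 point per kidney in blue for control and orange for SIK mutant; open points mark controls 3 and 4, whose Y-linked genes were under 1 CPM. *Fxyd2* and *Atp1b1* stand apart at mean levels of 4023 and 819 TPM, and the *Fxyd2* points of the mutants lie below those of the controls.

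Across genotypes, 0 of the 7 genes had an FDR under 0.05, and 1, *Fxyd2*, had an unadjusted p under 0.05, where 0% of all tested genes had such an FDR, 6.36% had such a p and 3.59% had it with a lower level in mutants. The fitted log2 fold change was negative for 6 of the 7 genes and ranged from -0.53 to 0.02. Its median was -0.06, against -0.0038 over all tested genes. In CPM, 0 of the 7 genes had groups that did not overlap, against 4.03% of all tested genes.

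**Figure D2:**
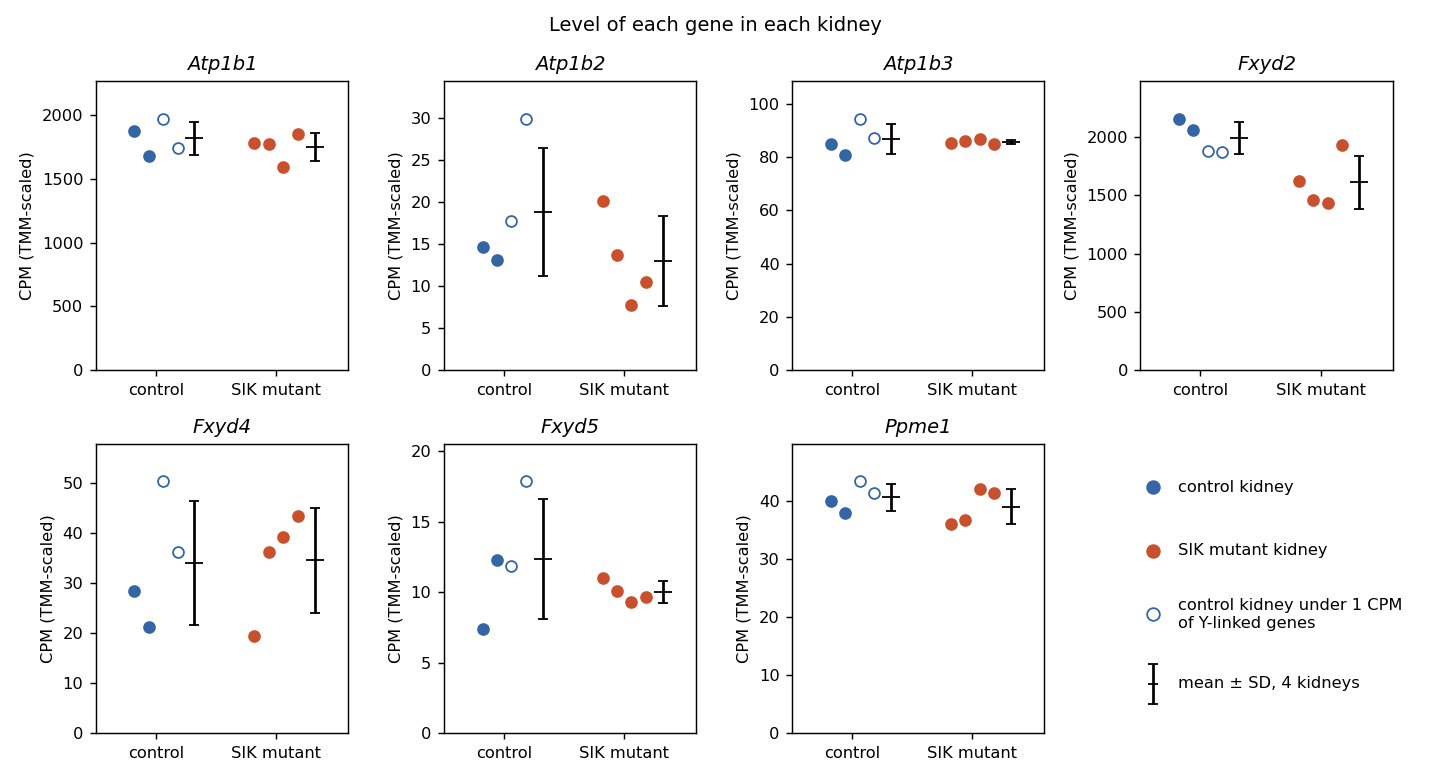
CPM of each of the 7 genes in each kidney, with 1 panel per gene and the y axis from 0; filled points are kidneys with Y-linked reads, open points controls 3 and 4, and bars show the mean ± SD of 4 kidneys. *Fxyd2* has 3 mutants between 1437 and 1622 CPM, below every control, with mutant 4 at 1932 CPM among the controls, and the groups overlap in every panel.

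*Atp1b1* (chr1:164437109-164458355, GRCm38) was at 1871, 1678, 1970.0 and 1745 CPM in controls 1 to 4 and at 1779, 1774, 1593 and 1847 CPM in mutants 1 to 4. The groups overlapped over most of their range, and neither the highest nor the lowest kidney stood apart. By edgeR the log2 fold change was -0.05 (SE 0.10, FDR 0.951). Its 95% interval corresponded to a change between -17.7% and 12.7%. Over the 6 kidneys with Y-linked reads it was -0.01 (SE 0.11, FDR 0.9754). *Atp1b1* had 16450 to 22372 expected counts per kidney. The gene *Nme7* overlaps it on the opposite strand with at most 2563 counts, and the sources used here do not say whether counting used strand. On the TPM scale the difference had the opposite sign, 803 ± 107 TPM in controls against 836 ± 55.0 TPM in mutants (exact permutation p = 0.571, n = 4 and 4).

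*Atp1b3* (chr9:96332655-96364442), a beta subunit gene expressed in many tissues, had the narrowest range of the set in CPM, 1.17-fold over 8 kidneys. In TPM its range was 1.34-fold, wider than those of *Ppme1* and *Fxyd2* (1.17-fold and 1.31-fold). The levels of *Atp1b3* were 84.7, 80.9, 94.4 and 87.1 CPM in controls and 85.2, 86.0, 86.7 and 85.1 CPM in mutants. All 4 mutants lay inside the range of the controls. In the edgeR fit the difference was -0.02 on the log2 scale (SE 0.07, FDR 0.986), and its 95% interval corresponded to -11.9% to 10.7%. In the 6 kidneys with Y-linked reads it was 0.06 (FDR 0.813). There all 4 mutants lay above controls 1 and 2, and among 6 kidneys 21.8% of all tested genes had groups that did not overlap.

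*Atp1b2* (chr11:69599736-69605942) varied most. It was at 14.6, 13.0, 17.7 and 29.9 CPM in controls and at 20.1, 13.6, 7.75 and 10.5 CPM in mutants. Control 4 was the highest kidney and mutant 3 the lowest, a 3.85-fold range on 80 to 341 expected counts, and the groups overlapped. The edgeR log2 fold change was -0.53 (SE 0.33, FDR 0.831), with a 95% interval of -58.4% to 15.0% as a change in level. Over the 6 kidneys with Y-linked reads it was -0.07 (SE 0.32, FDR 0.946). The 2 controls left out of that fit were the highest controls for this gene. Without mutant 1 the log2 fold change was -0.82, with an unadjusted p under 0.05 and an FDR of 0.735, where 6.6% of all genes tested in that fit had such a p, and without control 4 or mutant 3 it was -0.22 (FDR 0.942) or -0.35 (FDR 0.995).

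*Fxyd2* encodes the gamma subunit of the pump, which lowers its affinity for sodium and which is altered in a dominant form of renal magnesium wasting. It was at 2157, 2057, 1883 and 1868 CPM in controls 1 to 4. In mutants 1 to 4 it was at 1622, 1456, 1437 and 1932 CPM. Mutants 1, 2 and 3 were below every control, and mutant 4 lay between controls 2 and 3, so the groups overlapped through 1 kidney. Mutants 1 and 4, at 1622 and 1932 CPM of *Fxyd2*, had the highest blood markers. The part of blood content in the level of *Fxyd2* was not tested. Group means were 1991 ± 140 CPM and 1612 ± 229 CPM (SD, n = 4 and 4; exact permutation p = 0.0857). The edgeR log2 fold change was -0.30 (SE 0.12, FDR 0.754), a change of -19.0% with a 95% interval of -33.2% to -1.96%. DESeq2 gave an FDR of 0.486, also with an unadjusted p under 0.05. Among only the 6 kidneys with Y-linked reads, the difference was -0.38 on the log2 scale (SE 0.14, FDR 0.371 by edgeR) and the unadjusted p remained under 0.05, where 11.1% of all tested genes had an unadjusted p under 0.05.

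In TPM, *Fxyd2* was at 4241, 4233, 4439 and 4434 in controls and at 3828, 3533, 3398 and 4078 in mutants. On this scale every mutant was below every control, where 5.1% of all tested genes had groups that did not overlap in TPM and 0.517% had the mutants lower, against 2.39% in CPM. The median log2 fold change of all tested genes was 0.09 on log2(TPM + 1). The exact permutation p was 0.0286, the smallest that 4 against 4 kidneys can give. Group means were 4337 ± 115 TPM and 3709 ± 305 TPM (SD, n = 4 and 4). The order of the controls differed between the scales, since controls 3 and 4, the lowest in CPM, were the highest in TPM.

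The level of *Fxyd2* moved with the fragment length of the libraries. The 3 mutants with the lowest *Fxyd2* had the shortest fragments, and mutant 4, whose fragments were as long as those of controls 1 and 2, had a control-like level. Over the 8 kidneys, Pearson's r between log2 CPM and the fragment measure was 0.942 (exact permutation p = 0.000967, 0.00677 after Benjamini-Hochberg adjustment over the 7 genes), and Spearman's rho was 0.905 (exact permutation p = 0.00456, adjusted 0.0319). Without control 2 and mutant 3, the kidneys farthest from the median fragment length, r was 0.905 over 6 kidneys. Of all tested genes, 0.133% had an r at least as high. For the other 6 genes r lay between -0.37 and 0.37, with exact permutation p of 0.362 or more. *Fxyd2* has short transcripts, 672 to 686 bases on average, and the 1496 tested genes under 1000 bases had a median r of 0.33 and a median log2 fold change of -0.08, against -0.14 and 0.03 for the 8792 genes of 2000 bases or more. With the fragment measure as a covariate, a fit chosen after its relation to *Fxyd2* had been seen, the log2 fold change was -0.14 (SE 0.09, FDR 0.741 by edgeR) and 0 of the 7 genes had an unadjusted p under 0.05, against 7.13% of all tested genes. On the 6 kidneys with Y-linked reads it was -0.12 (SE 0.12, FDR 1) with that covariate. Genotype and fragment length shared 29.6% of their variance over 8 kidneys and 47.1% over those 6, so neither fit separates them fully. Effective length also holds the fragment length of each library. With the effective lengths as an offset, which corrects each gene's count for them, the log2 fold change was -0.33 (FDR 0.714 by edgeR) and the unadjusted p stayed under 0.05. The effective length of *Fxyd2* was 460 to 465 bases in controls and 468 to 474 bases in mutants. The offset thus allows for more counts in mutants, so it cannot remove a relation in which counts fall with shorter fragments. The TPM scale uses the same effective lengths.

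**Figure D3:**
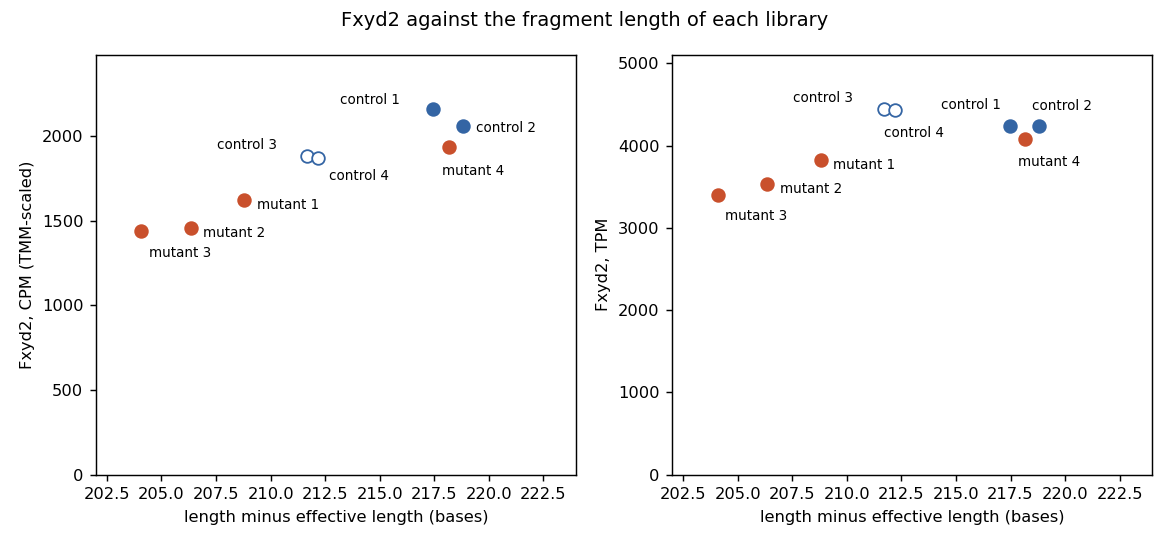
*Fxyd2* in each kidney, in CPM on the left and TPM on the right, against each library's length minus effective length in bases, with controls in blue, SIK mutants in orange and open points for controls 3 and 4. In CPM the 8 kidneys rise together with fragment length (r = 0.942 on log2 CPM) and mutant 4 lies near controls 1 and 2, while in TPM controls 3 and 4 are the highest.

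*Fxyd2* lies at chr9:45399669-45410278, 3509 bases past the end of *Fxyd6* and 603 kb before *Sik3*, one of the deleted genes. Between *Fxyd2* and *Sik3*, 0 of 12 tested genes had an unadjusted p under 0.05 by edgeR, with log2 fold changes from -0.46 to 0.34. *Fxyd6*, on the other side, was at 4.47 to 7.88 CPM in controls and 4.07 to 8.65 CPM in mutants, with a log2 fold change of -0.01 (edgeR FDR 0.997).

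Summed levels of segment markers were set beside *Fxyd2*, which is known from several tubule segments. Proximal tubule markers summed to 8644 to 12226 CPM in controls and 8533 to 10303 CPM in mutants, with 1 of 8 genes at an unadjusted p under 0.05, *Slc5a2* (454 to 555 CPM against 315 to 321 CPM). Distal convoluted tubule markers summed to 1099 to 1704 CPM in controls and 979 to 1435 CPM in mutants, with 2 of 5 genes at such a p. These were *Trpm6*, lower in mutants without overlap (17.7 to 23.8 CPM against 9.53 to 16.3 CPM, edgeR FDR 0.434), and *Trpv5*, higher in mutants (14.6 to 22.7 CPM against 19.3 to 27.7 CPM, edgeR FDR 0.768). Thick ascending limb markers summed to 3899 to 4994 CPM and 3985 to 5522 CPM, with 1 of 6 genes at such a p, *Cldn16* (4.74 to 7.93 CPM against 6.39 to 14.4 CPM). All 3 sums overlapped between groups, and 6.36% of all tested genes had such a p. In whole kidney, fewer cells of a type and less RNA per cell cannot be told apart, and the part of tubule composition in the level of *Fxyd2* was not tested.

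*Fxyd4* (chr6:117933559-117937692), which raises the pump's affinity for sodium, was at 28.4, 21.1, 50.4 and 36.2 CPM in controls and at 19.4, 36.2, 39.3 and 43.4 CPM in mutants. The groups spanned a 2.38-fold and a 2.23-fold range, and the lowest kidney was a mutant while the highest was a control. The edgeR log2 fold change was 0.02 (SE 0.29, FDR 0.994). Its 95% interval was -35.8% to 59.98% as a change in level. For the 6 kidneys with Y-linked reads alone, the difference was 0.49 on the log2 scale (SE 0.29, FDR 0.553), with 3 of the 4 mutants above both controls. Principal cell markers, of the cells in which *Fxyd4* is best known, summed to 385 to 758 CPM in controls and 537 to 922 CPM in mutants. Control 2 and mutant 1 had the lowest sum of their groups and also the lowest *Fxyd4*, and control 3 the highest sum and level of the controls, but mutant 3 had the highest sum and mutant 4 the highest *Fxyd4* of the mutants. The part of principal cell content in *Fxyd4* was not tested. Whole-kidney RNA does not show whether principal or intercalated cells lost their SIK genes, so the *Fxyd4* values cannot be read as those of SIK-deleted cells.

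*Fxyd5* (chr7:31032722-31042481), which acts on cell adhesion as well as on the pump, was at 7.41, 12.3, 11.9 and 17.9 CPM in controls. In mutants it was at 11.03, 10.1, 9.30 and 9.62 CPM. The mutants lay within 1.19-fold of each other, inside the wider range of the controls. The edgeR log2 fold change was -0.31 (SE 0.23, FDR 0.878), and it was 0.03 (FDR 0.961) in the 6 kidneys with Y-linked reads. The lowest kidney of all was control 1. Without it, the log2 fold change was -0.48, with an unadjusted p under 0.05 and an FDR of 0.499, where 8.12% of all genes tested in that fit had such a p. Every mutant was then below every control, and 8.03% of tested genes had groups that did not overlap in that comparison. Without control 4 it was -0.07 (FDR 0.981).

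*Ppme1* (chr7:100326737-100372307) was at 39.99, 37.9, 43.4 and 41.5 CPM in controls and at 36.1, 36.7, 42.0 and 41.4 CPM in mutants. Mutants 1 and 2 were the lowest kidneys, and mutants 3 and 4 lay within the controls. By edgeR the log2 fold change was -0.06 (SE 0.09, FDR 0.943), with a 95% interval of -16.0% to 9.54%, and it was 0.01 (SE 0.10, FDR 0.971) in the 6 kidneys with Y-linked reads. *C2cd3* overlaps it on the opposite strand with at most 235 counts, against 384 to 493 counts for *Ppme1*.

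**Figure D4:**
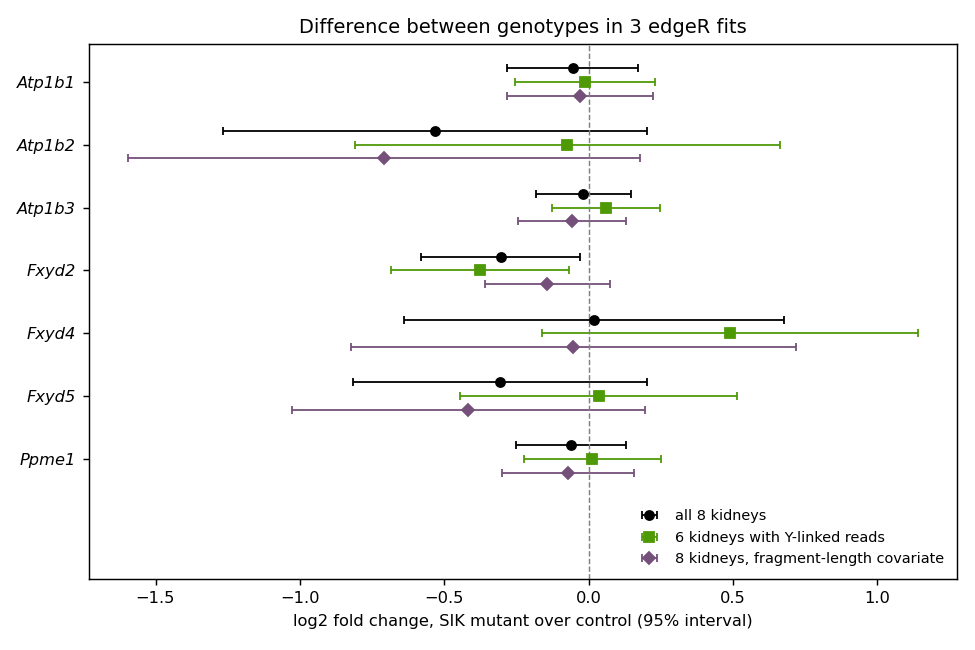
Fitted log2 fold change of SIK mutant over control with its 95% interval for the 7 genes, from edgeR on 8 kidneys (black), on the 6 kidneys with Y-linked reads (green) and on 8 kidneys with the fragment-length covariate (purple). *Fxyd2* is the only one of the 7 whose interval lies below 0 in the first 2 fits, and it includes 0 in the third, at -0.14; *Atp1b1*, *Atp1b3* and *Ppme1* have narrow intervals around 0.

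Ratios within a kidney were taken on the TPM scale. *Fxyd2* per *Atp1b1* was 5.70, 6.07, 4.72 and 5.35 in controls and 4.42, 3.93, 4.32 and 5.15 in mutants. Mutant 4 was above control 3, so the groups overlapped. Mutants 1 to 3, with the lowest ratios, also had the shortest fragments. The r of log2 CPM with the fragment measure was 0.942 for *Fxyd2* and 0.37 for *Atp1b1*. The part of fragment length in the ratio was not tested. The means were 5.46 ± 0.573 and 4.46 ± 0.51 (SD, n = 4 and 4), a difference of -1.002 with a two-sided exact permutation p of 0.0571. The difference on the 6 kidneys with Y-linked reads was -1.43 (n = 2 and 4; exact permutation p = 0.0667, the smallest that 2 against 4 can give). The balance among beta subunit genes overlapped between groups: *Atp1b3* made up 5.57% to 5.97% of their summed TPM in controls and 5.62% to 6.43% in mutants (exact permutation p = 0.8, n = 4 and 4).

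**Figure D5:**
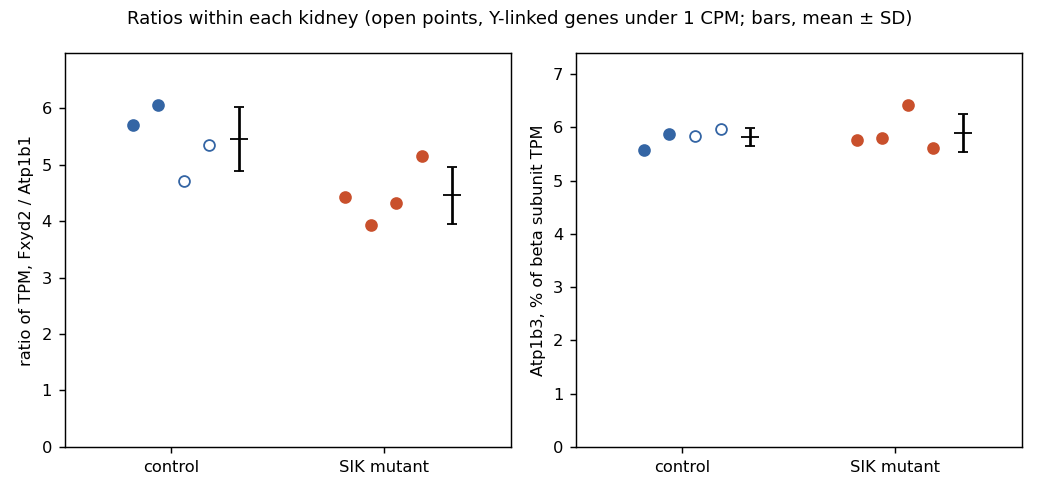
Ratio of *Fxyd2* to *Atp1b1* in TPM (left) and percent of the summed TPM of the 3 beta subunit genes given by *Atp1b3* (right), 1 point per kidney with open points for controls 3 and 4, bars showing the mean ± SD and axes from 0. The *Fxyd2* ratio is lower in 3 of the 4 mutants than in all controls, while the *Atp1b3* shares of the groups overlap.

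The other pump genes were read from fixed lists. Of 31 related genes, 24 passed the filter, 0 had an FDR under 0.05, 1 had an unadjusted p under 0.05 with a higher level in mutants (*Sik1*) and 2 with a lower level (*Sik3* and *Pcbd1*). *Atp1a4*, *Atp1b4* and *Fxyd7* did not pass the filter and reached at most 0.385, 0.0892 and 0.289 CPM, near or under the level of 3 counts, which was 0.275 to 0.295 CPM. *Fxyd1* lay at 3.85 to 10.2 CPM in controls and 5.80 to 9.62 CPM in mutants, and *Fxyd3* at 0.507 to 2.82 CPM and 0.981 to 1.94 CPM, with edgeR FDRs of 0.997 and 0.966. When only the 6 kidneys with Y-linked reads were compared, *Fxyd1* had a log2 fold change of 0.79 (95% interval 0.20 to 1.39, FDR 0.345 by edgeR), with an unadjusted p under 0.05. Controls 3 and 4, left out there, had the highest *Fxyd1* of all kidneys. *Fxyd3* was 0.64 (FDR 0.656) and *Fxyd6* 0.36 (FDR 0.691) in those kidneys.

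Regulators of pump genes and partners of *Ppme1* showed 2 further genes with values named by the rule. *Pcbd1*, which encodes a pterin dehydratase that also acts as a transcriptional cofactor, was at 291, 289.7, 252 and 278 CPM in controls and at 252, 198, 199 and 258 CPM in mutants. Mutants 2 and 3 were below all other kidneys, and the log2 fold change was -0.29 (SE 0.12, FDR 0.754 by edgeR). It too moved with fragment length (r = 0.859, unadjusted exact permutation p = 0.00375), and 1.24% of all tested genes had an r at least as high. Its rho was 0.833 (unadjusted exact permutation p = 0.0154), and r was 0.739 without the 2 farthest kidneys. With the fragment-length covariate, the log2 fold change of *Pcbd1* was -0.15 and its unadjusted p was over 0.05. *Nr3c1*, the glucocorticoid receptor gene, was at 70.4 to 73.1 CPM in controls and 76.4 to 81.6 CPM in mutants without overlap, with a log2 fold change of 0.14 (SE 0.07, edgeR FDR 0.792). None of the 10 PP2A subunit and regulator genes had an unadjusted p under 0.05 by edgeR. Of the H,K-ATPase and NKAIN genes, 3 of 7 passed the filter, with log2 fold changes from -0.44 to 0.62 and none with an unadjusted p under 0.05.

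For each of the 7 genes, the 3 tested genes with the most similar log2 CPM over the 8 kidneys were listed by Pearson's r, as a description, since 14326 genes were searched over 8 points. For *Fxyd2* they were *Ypel3*, *Hgd* and *Gpr89* (r = 0.982, 0.981 and 0.967, and 0.999, 0.987 and 0.971 over the 6 kidneys with Y-linked reads). For *Atp1b1* they were *Gm9843*, *Gm28845* and *Bdh1* (0.948, 0.937 and 0.928, and 0.965, 0.924 and 0.938 over the 6 kidneys). For *Atp1b2* they included *Ndufa4l2* and *Hhat* (0.986 and 0.969, then 0.968 and 0.949), and for *Atp1b3* *Gm13111*, *Arhgef28* and *Cds1* (0.983, 0.971 and 0.967, then 0.948, 0.969 and 0.841). *Gm9843* and *Gm28845* lie near 1 CPM, where counts are few. For *Fxyd4* they were *Itga2b*, *Cept1* and *Acacb* (0.976, 0.971 and 0.969, then 0.985, 0.980 and 0.962), for *Fxyd5* *Epb41l3*, *Rbm12b2* and *Tor3a* (0.961, 0.960 and 0.956, then 0.873, 0.910 and 0.894), and for *Ppme1* *Lypd2*, *Elf3* and *Spint2* (0.966, 0.965 and 0.965, then 0.962, 0.952 and 0.947). None of the 7 genes was among the 3 most similar genes of another. The highest r between a pair of the 7 was 0.785, for *Fxyd4* and *Ppme1*, and *Fxyd2* with *Atp1b1* had an r of 0.472.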

How the data were processed

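The authors aligned reads to mm10 with STAR 2.7.2b and quantified genes with RSEM 1.3.0, per the submitters' processing notes, and deposited 1 file per kidney without pooling. Deposited expected counts are RSEM estimates and are not normalized. Deposited TPM values are scaled to effective length and library total, and the effective lengths, lengths and posterior standard deviations are as RSEM gives them. Libraries were made from mRNA and sequenced on a BGISEQ500. Of 55401 genes, 55141 matched GENCODE M21 (GRCm38) without version, which gave symbols and coordinates.

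Expected counts were rounded. Genotypes were compared with edgeR 4.0.16 (R 4.3.3) by its quasi-likelihood test (TMM, filterByExpr, legacy = TRUE, robust off), without covariate, with Benjamini-Hochberg adjustment (FDR) over 14326 genes. Intervals are 95% from that fit. Single values were compared by a two-sided exact permutation test over 70 assignments (smallest p 0.0286). Similarity used log2(CPM + 0.5). Floors of 3 counts cover counting error only, since the libraries carry no molecular identifiers. The labels name no batch and do not state that kidneys came from separate litters, so p-values measure the spread between these kidneys. The genes, lists and tests were chosen with earlier results of these data known. The naming rule gave all 7 genes, every pump subunit, FXYD and SIK gene, other listed genes with an unadjusted p under 0.05 or no overlap, and the 3 most similar genes, and some of the genes it gave are not reported here. No pair of replicates was a duplicate (chi-square per degree of freedom 9.44 to 53.8 over 12 pairs). The scripts were tested on simulated data. Alternatives were DESeq2 1.42.0, voom and trend fits of limma 3.58.1 (trend on TPM), other scaling factors, a looser and a stricter filter, an effective-length offset, unrounded counts, other edgeR defaults, a block or Y-linked covariate, the 6 kidneys with Y-linked reads, and each kidney left out. The fits with fragment length, DESeq2 on 6 kidneys and the ratio of expected counts were added after the data were seen. Posterior standard deviations were at most 0.08 counts for the 7 genes.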

Additional observations from a re-analysis of the deposited data

Results flagged for a closer look

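For 15 named genes and the *Fxyd2* per *Atp1b1* ratio, each group of 4 kidneys was checked for a kidney whose gap to its nearest neighbour exceeded Dixon's 95% critical share of the group's range. Of the 32 groups, 0 held such a kidney, where chance gives about 1 in 20.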

How the results depend on the processing

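No gene of the 7 had an FDR under 0.05 in any of the 26 alternatives, and the differences of *Fxyd2*, *Atp1b2* and the *Fxyd2* per *Atp1b1* ratio were negative in all of theirs (*Fxyd2* log2 fold change -0.40 to -0.12, FDR 0.179 to 1). The count of genes with an unadjusted p under 0.05 was 0 with the replicate block and with the fragment-length covariate on 8 or 6 kidneys, and 0 to 1 when single kidneys were left out. The 1 gene was *Fxyd5* without control 1 and *Atp1b2* without mutant 1, while *Fxyd2* had such a p in 3 of these 8 fits (not without control 1 or 2 or mutant 1, 2 or 3). The count of genes without overlap was 1 (*Fxyd2*) with upper-quartile factors and in TPM (3.83% and 5.1% of all tested genes), 2 (*Atp1b3* and *Fxyd2*) on the 6 kidneys with Y-linked reads (21.8%), and 0 to 1 when single kidneys were left out (5.4% to 8.57%). Leaving out single kidneys gave log2 fold changes of -0.82 to -0.22 for *Atp1b2* and -0.48 to -0.07 for *Fxyd5*. In TPM, the ratio difference was -1.25 to -0.80 when single kidneys were left out and -1.43 on the 6 kidneys (exact permutation p = 0.0667). The ratio of expected counts is on another scale, with means of 1.10 in controls and 0.92 in mutants. Its difference was -0.18 (exact permutation p = 0.0571).

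The sign turned for 5 genes, each time within the interval of the estimate. In the limma-trend fits on log2(TPM + 1) and log2(TPM + 0.1), where the median of all genes was 0.09 and 0.11, *Atp1b1* was 0.0643 and 0.0644, *Atp1b3* 0.0809 and 0.0824, and *Ppme1* 0.0138 and 0.0145. With the Y-linked covariate *Atp1b3* was 0.0526, *Fxyd5* 0.0251 and *Ppme1* 0.0076. On the 6 kidneys with Y-linked reads *Atp1b3* was 0.0598, *Fxyd5* 0.0347 and *Ppme1* 0.0135, in DESeq2 on these kidneys 0.0572, 0.0331 and 0.0109, and with the fragment-length covariate there *Atp1b1* was 0.0743, *Atp1b3* 0.0368, *Fxyd5* 0.0627 and *Ppme1* 0.0405. *Fxyd4* was -0.0037 with upper-quartile factors and -0.0533 with the fragment-length covariate. When single kidneys were left out, *Atp1b3* ranged from -0.0503 to 0.025 and *Fxyd4* from -0.15 to 0.27. The cause was not tested.

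With the replicate block, the log2 fold change of *Fxyd2* was -0.31 (edgeR FDR 0.996), and its unadjusted p was over 0.05. The numbers are not known to pair mice: correlations of same-numbered deviations ran from -0.318 to 0.0557, and 1 of 4 controls correlated best with its own number.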
